A study of Mus musculus with 6 samples.

Results

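Peptide hormones of the islet are made as longer precursors and cut to size in the secretory pathway, and the genes described here encode the enzymes that do the cutting and trimming. The list held 10 genes: the prohormone convertases Pcsk1, Pcsk2, Pcsk5, Pcsk6, Pcsk7 and Furin, the convertase inhibitor Pcsk1n, the metallocarboxypeptidases Cpe and Cpm, and the amidating enzyme Pam. They were taken by name, though earlier results of these data were known. Each was read from its probe set with a single gene symbol. Of the 10, 9 had exactly 1 such probe set among the 19937 genes represented on the arrays. Pcsk2, the convertase that acts beside Pcsk1 in granules, had no single-symbol probe set in the table and was not analysed here.

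The RNA came from whole islets of 16-week-old mice and was read on Affymetrix Mouse Gene ST arrays. The 3 Sox17-GOF samples carried Ins2-rtTA together with tetO-Sox17, so that doxycycline turns on the transcription factor Sox17 in insulin-producing cells. The 3 control samples carried Ins2-rtTA by their labels, and both groups had received doxycycline for 24 hours. For another experiment with the same induction the study names tetO-Sox17 mice as controls. If that held for these arrays, the rtTA allele and the induction of Sox17 could not be told apart. The methods describe independent biological triplicates of male mice on a largely C57BL/6 background. Because the transgene is driven in insulin-producing cells while the arrays read whole islets, a fold change is not a change per β cell. In such bulk RNA, fewer cells of a type and less RNA per cell cannot be told apart.

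Proprotein convertases are serine proteases of the subtilisin type that cut precursors after basic residues. Furin, Pcsk5, Pcsk6 and Pcsk7 act mainly in the trans-Golgi network, at the cell surface or outside the cell, whereas Pcsk1 and Pcsk2 act in the acidic secretory granules of endocrine cells, where proinsulin is cut. Carboxypeptidase E then removes the basic residues left at the new C-terminus, and Pam turns a C-terminal glycine into an amide on peptides such as islet amyloid polypeptide.

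Sox17, the induced gene, rose. Its signal on the log2 scale was 6.35, 6.22 and 6.36 in Sox17-GOF islets, against 5.50, 5.72 and 5.71 in control islets, a difference of 0.67 (standard error 0.09, adjusted p = 0.00876 from limma). The call was lost with the methods' t-test (adjusted p = 0.0906). Whether transcripts of the transgene reach its probe set was not examined. Array medians were 6.31 to 6.41 in Sox17-GOF islets, against 6.35 to 6.38 in control islets, and arrays of 1 group correlated at 0.984 to 0.991. The first principal component held 48.4% of the variance and separated the genotypes, while on the second (19.8%) the array of Sox17-GOF replicate 3 lay at -26.3 and those of Sox17-GOF replicates 1 and 2 at 17.4 and 13.1. Values that turn on this replicate are therefore given with and without it.

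The islet identity of the samples was read from cell type markers. Ins2, an insulin gene, stood at 13.02, 13.12 and 13.08 in Sox17-GOF islets, against 13.03, 13.12 and 13.10 in control islets, near the array maxima of 14.1 to 14.2. Of 8 β cell markers, 4 fell and none rose (Ucn3, Slc2a2, G6pc2 and Pdx1), against 2.32% of all probe sets called lower. The summed linear level of all 8 was 26990.4 to 28999 in Sox17-GOF islets, against 33257 to 34934 in control islets. The calls of Ucn3 and Slc2a2 held whichever array was left out, that of Pdx1 was lost when any of the 6 was left out (highest adjusted p 0.113), and the G6pc2 call was lost without Sox17-GOF replicate 1 or when any of the 3 control arrays was left out (up to 0.078). None of the measured markers of α cells (4), of δ and PP cells (4), of acinar cells (8), of duct cells (4), of stellate cells and fibroblasts (7), of macrophages and leukocytes (8) or of Schwann cells and glia (4) passed the test, and of 7 endothelial markers 1 fell (Kdr, -0.68, lost without Sox17-GOF replicate 2, control replicate 1 or control replicate 3). Of the 7 endothelial markers, 4 had positive and 3 negative log2 fold changes. Acinar markers averaged 10.73, 11.43 and 11.71 in Sox17-GOF islets, against 11.55, 11.25 and 11.29 in control islets, so that acinar RNA was detected on every array. The duct markers averaged 7.12, 7.32 and 7.91 in Sox17-GOF islets, against 7.16, 7.06 and 7.07 in control islets, highest on the array of Sox17-GOF replicate 3. The group means of the duct channel gene Cftr lay below the 20th percentile of all signals (4.63), though it read 4.82 in Sox17-GOF replicate 3. All 7 stellate cell and fibroblast markers had positive log2 fold changes (median 0.21). In 3 of them the groups did not overlap, against 24.9% of all probe sets. These markers averaged 6.89, 7.29 and 7.31 in Sox17-GOF islets, against 6.95, 6.99 and 6.54 in control islets. The sign was also uniform in the β cell (8 negative), α cell (4 negative), δ and PP cell (4 negative) and glial (4 positive) markers. The part that these marker levels have in the values of the processing genes was not tested.

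Among the 9 measured genes, the carboxypeptidase gene Cpm fell, none rose, and the other 8 did not pass an adjusted p of 0.05. Across all 22961 probe sets with a symbol, 4.93% passed and 2.32% were lower in Sox17-GOF islets. The median log2 fold change of the 9 genes was -0.01, and that of all 19937 genes was also -0.01, with quartiles of -0.12 and 0.10. In 4 of the 9 genes (Cpm, Pcsk1, Pcsk6 and Furin) the values of the groups did not overlap, against 24.9% of all probe sets. An exact permutation test of any single gene cannot go below p = 0.10 (two-sided) with 3 arrays against 3, the value that these 4 genes reached.

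**Figure D1:**
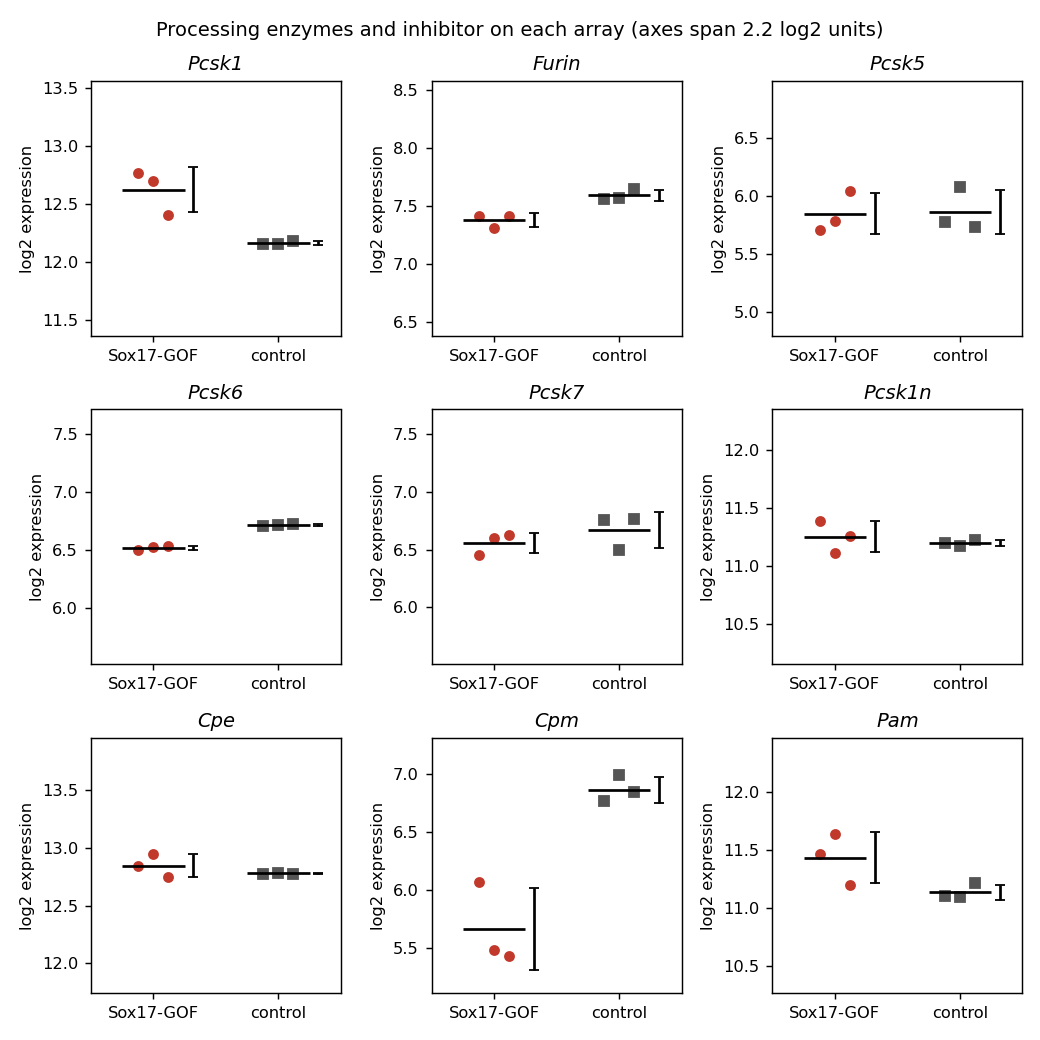
Log2 expression of the 9 measured genes on each array, Sox17-GOF islets (circles) and control islets (squares), with the group mean (horizontal bar) and SD (vertical bar, n = 3 each). Every panel spans the same number of log2 units but has its own offset, and the 3 Cpm values of Sox17-GOF islets (5.44 to 6.07) lie below all control values (6.77 to 6.99).

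The enzymes that trim C-termini are described first. Cpm encodes carboxypeptidase M, a membrane-anchored enzyme of the cell surface that removes C-terminal arginine and lysine from peptides. Probe set 10366546 of Cpm read 6.07, 5.48 and 5.44 in Sox17-GOF islets, against 6.77, 6.99 and 6.84 in control islets. All Sox17-GOF arrays were below all control arrays, with replicate 1 the highest of the Sox17-GOF arrays. The means were 5.66 ± 0.35 in Sox17-GOF islets, against 6.87 ± 0.11 in control islets (SD, n = 3 each). This was a log2 fold change of -1.20 (standard error 0.17, 95% interval -1.60 to -0.81, adjusted p = 0.00953 from limma), so that the level was 2.30-fold lower in Sox17-GOF islets. Of the 19937 genes, 162 had a log2 fold change at least as large in absolute size. The call was lost without control replicate 2 (-1.14, adjusted p = 0.0532) and with the methods' t-test (adjusted p = 0.134). Without Sox17-GOF replicate 3 the log2 fold change was -1.09 (adjusted p = 0.0210), and without Sox17-GOF replicate 1 it was -1.41 (adjusted p = 0.00222).

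Cpe encodes carboxypeptidase E, the granule enzyme that completes prohormone cleavage. Its probe set (10578904) read 12.84, 12.95 and 12.75 in Sox17-GOF islets, against 12.77, 12.78 and 12.77 in control islets. The Sox17-GOF arrays lay on both sides of the narrow control range. The log2 fold change was 0.07, with a 95% interval of -0.12 to 0.25 (adjusted p = 0.716 from limma). Its signals, like those of Ins2, lie near the array maxima of 14.1 to 14.2, and how far signals there follow the transcript was not tested. Whether Cpm and Cpe differ in their response was not tested.

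Pcsk1 encodes prohormone convertase 1/3, a granule enzyme that cuts proinsulin. Probe set 10406229 read 12.77, 12.70 and 12.41 in Sox17-GOF islets, against 12.16, 12.16 and 12.19 in control islets. All Sox17-GOF arrays were above all control arrays, and Sox17-GOF replicate 3 was nearest to them. The means were 12.63 ± 0.19 in Sox17-GOF islets, against 12.17 ± 0.017 in control islets (SD, n = 3 each). The log2 fold change was 0.46 (standard error 0.11, 95% interval 0.21 to 0.71), a 1.38-fold difference, and its adjusted p of 0.0533 from limma lay just outside the threshold.

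Pcsk1 lay on either side of the threshold, depending on the setting. It passed under 4 of 15 alternatives: an intensity trend (adjusted p = 0.0305), array weights (0.0247), the mean of each gene's probe sets (0.0435), and without Sox17-GOF replicate 3 (log2 fold change 0.57, adjusted p = 0.0131). Pcsk1 has 1 single-symbol probe set, so gene means left its own values unchanged, and only the other rows of that fit differed. Leaving out any of the other 5 arrays gave adjusted p-values of 0.113 to 0.165, and the methods' t-test gave 0.191. The log2 fold change itself stayed between 0.39 and 0.57 under all 15. On the array of Sox17-GOF replicate 3, Pcsk1 was lowest among the Sox17-GOF arrays. Duct (7.91), acinar (11.71) and δ and PP cell (11.87) markers averaged highest of all arrays there. So did stellate cell and fibroblast (7.31) and Schwann cell and glia (6.30) markers. The β cell markers averaged lowest of all arrays there (10.37, against 10.51 and 10.46 in Sox17-GOF replicates 1 and 2). The part of these marker levels in the Pcsk1 values was not tested.

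**Figure D2:**
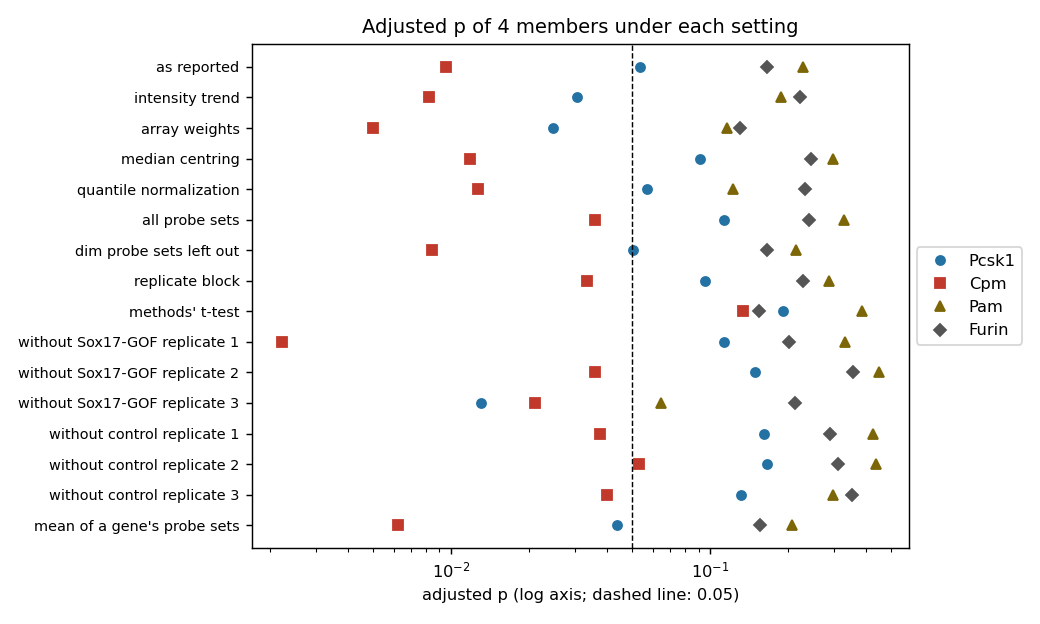
Adjusted p (log axis) of Pcsk1, Cpm, Pam and Furin under the reported setting and its alternatives, with the dashed line at 0.05. Cpm lies left of the line except with the methods' t-test (adjusted here, unlike in the methods) and without control replicate 2. Pcsk1 lies on both sides of the line, and Pam and Furin lie right of it throughout.

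Pcsk1n encodes proSAAS, a granule protein whose processed peptide inhibits the Pcsk1 enzyme. Its probe set (10598493) read 11.39, 11.12 and 11.26 in Sox17-GOF islets, against 11.20, 11.17 and 11.23 in control islets. The groups overlapped, and the log2 fold change was 0.05 (95% interval -0.15 to 0.26, adjusted p = 0.808 from limma). Its sign turned under 1 of 15 alternatives.

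Since the enzyme and its inhibitor were read on the same arrays, their difference was taken within each array. Pcsk1 minus Pcsk1n was 1.38, 1.59 and 1.15 log2 units in Sox17-GOF islets, against 0.96, 0.99 and 0.96 in control islets. All Sox17-GOF arrays were above all control arrays. The means were 1.37 ± 0.22 in Sox17-GOF islets, against 0.97 ± 0.017 in control islets (SD, n = 3 each), which differed by 0.41, or 1.33-fold, with an exact permutation p of 0.10 (two-sided), the smallest that 3 arrays against 3 allow. The difference was 0.52 without Sox17-GOF replicate 3 and 0.30 without Sox17-GOF replicate 2. The log2 fold change was 0.46 for Pcsk1 alone and 0.05 for Pcsk1n. The within-array difference thus largely repeats the Pcsk1 values and is no further support for them. Each probe set has its own response to RNA, so the level of this difference says nothing of the ratio of the transcripts, and only its change between groups is compared. That change, too, rests on how each probe set responds at its signal level, which was not tested.

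Pam encodes peptidylglycine α-amidating monooxygenase. Its probe set (10356968) read 11.46, 11.64 and 11.20 in Sox17-GOF islets, against 11.10, 11.10 and 11.21 in control islets. Sox17-GOF replicates 1 and 2 were above all control arrays, while replicate 3 lay within the control range. On average Pam differed by 0.30 on the log2 scale (standard error 0.12, 95% interval 0.02 to 0.57, adjusted p = 0.228 from limma), and the difference was 0.19 without Sox17-GOF replicate 2 (adjusted p = 0.447) and 0.41 without Sox17-GOF replicate 3 (adjusted p = 0.0643).

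Of the convertases that act outside the granule, Furin and Pcsk6 were lower on every Sox17-GOF array, by small amounts that did not pass the test. Furin, the convertase of the trans-Golgi network, had a log2 level of 7.41, 7.31 and 7.41 in Sox17-GOF islets, against 7.56, 7.57 and 7.64 in control islets (probe set 10564960). The log2 fold change was -0.21 (standard error 0.07, 95% interval -0.39 to -0.04, adjusted p = 0.165 from limma). Pcsk6 encodes PACE4, a secreted convertase of growth factor precursors, and its probe set (10553967) read 6.50, 6.52 and 6.53 in Sox17-GOF islets, against 6.71, 6.72 and 6.73 in control islets. The groups did not overlap, and the SDs were 0.020 in Sox17-GOF islets, against 0.0093 in control islets. The log2 fold change of Pcsk6 was -0.20 (standard error 0.07, 95% interval -0.36 to -0.04, adjusted p = 0.159 from limma). The methods' t-test takes the spread from each probe set alone. Adjusted over all probe sets and with no fold cut, unlike in the methods, it passed Pcsk6 alone of the 9 genes (adjusted p = 0.0457). At the methods' own rule, a 1.3-fold change and an unadjusted p under 0.05, Pcsk1 and Cpm passed and Pcsk6 did not.

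Pcsk7, a membrane-bound convertase, read 6.45, 6.60 and 6.62 in Sox17-GOF islets, against 6.76, 6.49 and 6.76 in control islets (probe set 10584954, log2 fold change -0.11, 95% interval -0.35 to 0.12). Pcsk5, a convertase of growth factor precursors with secreted and membrane-bound forms, read 5.71, 5.79 and 6.05 in Sox17-GOF islets, against 5.78, 6.08 and 5.73 in control islets (probe set 10466530, log2 fold change -0.01, 95% interval -0.31 to 0.28). The groups overlapped for both genes, the adjusted p-values from limma were 0.610 for Pcsk7 and 0.972 for Pcsk5, and the sign of Pcsk5 turned under 3 of 15 alternatives.

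**Figure D3:**
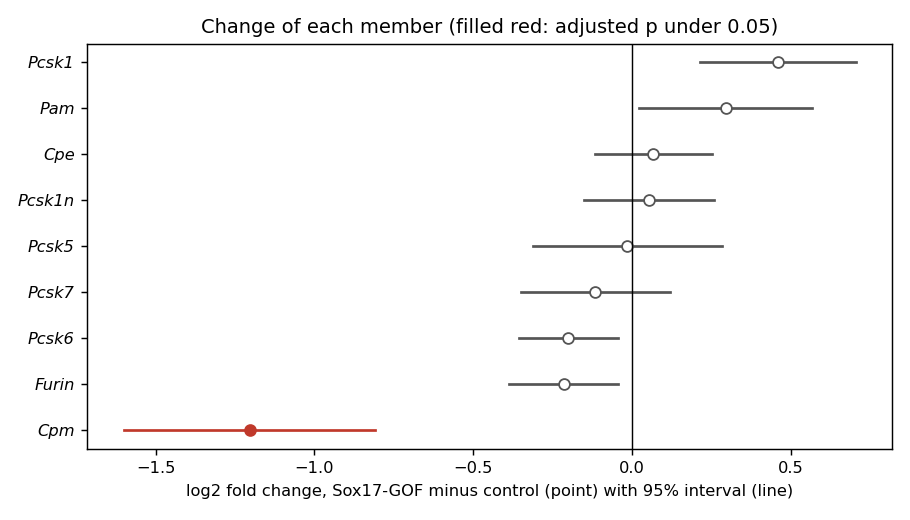
Log2 fold change (Sox17-GOF minus control, horizontal axis) of the 9 measured genes with the 95% interval from limma, the gene that passed an adjusted p of 0.05 filled in red. Only the interval of Cpm (-1.60 to -0.81) lies wholly beyond the others, and those of Pcsk1 and Pam lie above 0 and those of Furin and Pcsk6 below it without passing the adjusted threshold.

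The promoters of the gene that fell and of the convertase at the threshold are shown as reference sequence, as context for an experiment in which a DNA-binding factor was induced. Both are the 250 bases before the annotated start in RefSeq, build GRCm38.p6, plus strand, at chr10:117629250-117629499 for Cpm and chr13:75089607-75089856 for Pcsk1. Capitals mark TGACGTCA, the cAMP response element, which reads the same on both strands.
Cpm: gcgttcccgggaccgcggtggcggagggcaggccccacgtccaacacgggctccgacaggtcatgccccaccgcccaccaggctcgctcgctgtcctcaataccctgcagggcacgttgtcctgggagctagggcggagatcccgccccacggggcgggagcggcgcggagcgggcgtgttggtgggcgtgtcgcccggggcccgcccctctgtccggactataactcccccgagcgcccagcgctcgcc
Pcsk1: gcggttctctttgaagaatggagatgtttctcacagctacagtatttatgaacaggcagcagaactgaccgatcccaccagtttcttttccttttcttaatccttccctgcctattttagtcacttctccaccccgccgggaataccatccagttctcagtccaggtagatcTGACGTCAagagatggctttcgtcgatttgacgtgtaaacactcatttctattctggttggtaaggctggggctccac
RefSeq promoters were given for 8 of the 9 measured genes, in 10 entries, and Cpe was not among them. Of these, the Pcsk1 promoter alone held TGACGTCA, with its first base 78 bases before the start, and 1.55% of all 32851 promoters of this length held it. The SOX core letters ACAAT, searched with their reverse complement ATTGT, were in none of the 10 entries and in 27.7% of all promoters. The GC content was 74.4% for the Cpm window and 46.8% for the Pcsk1 window, against a median of 52.4% over all promoters. The other entries held 57.6% (Pcsk1n), 64% (Pcsk5), 80% (Pcsk7), 81.2% (Pcsk6), 50.4% and 83.2% (Furin), and 75.6% and 76.4% (Pam, overlapping windows). The share of 27.7% was not matched for GC content, so it sets no expected count for these entries. A match or its lack describes the letters of this window and no binding.

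Other genes of peptide processing were read from lists built by role, with earlier results of these data known. Their calls are therefore descriptions and no test of the lists, and 4.93% of all probe sets were called in either direction. None of the 2 other proprotein convertases measured passed the test: the log2 fold change was -0.23 for Pcsk4 and -0.08 for Mbtps1 (adjusted p = 0.231 and 0.820 from limma). None of the 8 granins, chaperones and inhibitors passed either, with a median of -0.08. The largest differences among them were -0.35 for Chga, the granule protein chromogranin A (adjusted p = 0.0786), and 0.22 for Vgf, a granin-like precursor (adjusted p = 0.300).

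Of the 12 measured metallocarboxypeptidase family genes of the secretory pathway beside Cpe and Cpm, 1 rose and the other 11 did not pass. Their median was -0.01, and the share of all probe sets called was 4.93%. Cpxm2, a secreted member of the family, had log2 levels of 6.19, 6.35 and 6.33 in Sox17-GOF islets, against 5.68, 5.57 and 5.71 in control islets. Membership is by family, and whether its product acts as an enzyme was not examined. The groups did not overlap, and the log2 fold change was 0.64 (adjusted p = 0.00658 from limma), a 1.55-fold higher level that passed whichever array was left out. Cpd, which encodes the membrane-bound carboxypeptidase of the trans-Golgi network, read 10.28, 10.67 and 10.24 in Sox17-GOF islets, against 9.95, 10.08 and 9.87 in control islets. Its groups did not overlap either, but it did not pass (0.43, adjusted p = 0.114). Cpd falls outside the rule for named genes and was picked after its values were seen. The cytosolic carboxypeptidases, which trim tubulin, had no gene past the test of 6 measured (median 0.00), the largest differences being 0.38 for Agbl4 and -0.22 for Agtpbp1.

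Among 8 other peptide-modifying enzymes (median 0.02), Tpst1, a tyrosine sulfotransferase of the Golgi, was called lower (-0.46, adjusted p = 0.0422 from limma). Tpst1 read 8.38, 8.43 and 8.42 in Sox17-GOF islets, against 8.93, 8.99 and 8.67 in control islets. The groups did not overlap, but the call was lost when any array but control replicate 3 was left out (adjusted p up to 0.149). The 7 genes that supply copper and ascorbate, the cofactors of Pam, gave no call (median 0.04), with -0.40 for the copper transporter Atp7a and 0.18 for the copper chaperone Atox1. Nor did the 3 genes of proteins that bind the Pam tail (median 0.21), with 0.63 for Rassf9 (adjusted p = 0.109) and -0.27 for Uhmk1 (0.297).

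Of 15 measured peptidases that break peptides down, 3 rose and 2 fell, against 4.93% of all probe sets called, and the median was -0.10. Nln, the cytosolic and mitochondrial neurolysin, had log2 levels of 9.39, 9.23 and 9.11 in Sox17-GOF islets, against 7.56, 7.64 and 7.49 in control islets, a 3.20-fold difference (adjusted p = 0.000255 from limma). Mme, the surface peptidase neprilysin, read 6.12, 6.21 and 6.05 in Sox17-GOF islets, against 4.84, 4.67 and 4.999 in control islets, a 2.44-fold difference (adjusted p = 0.00104). The Mme signals of the control arrays lie close to the 20th percentile of all signals (4.63), so that this fold is between a measured and a dim signal. In neither gene did the groups overlap, and both calls held whichever array was left out. Enpep, the aminopeptidase that cuts angiotensin II, was 1.57-fold higher (9.07, 9.35 and 9.14 in Sox17-GOF islets, 8.49, 8.63 and 8.48 in control islets, adjusted p = 0.0115). Its call was lost without control replicate 1 or 3 (adjusted p up to 0.0556).

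Ide, the insulin-degrading enzyme, read 8.30, 8.25 and 8.33 in Sox17-GOF islets, against 8.85, 8.79 and 8.69 in control islets. Its log2 fold change was -0.48 (adjusted p = 0.0150 from limma), with no overlap, and the call was lost without Sox17-GOF replicate 2, control replicate 1 or control replicate 2 (adjusted p up to 0.0728). The other gene that fell was Dpp9, a cytosolic dipeptidyl peptidase, which lies outside the rule for named genes. Its log2 fold change was -0.47 (adjusted p = 0.0281), and the call was lost when any array but Sox17-GOF replicate 3 was left out (adjusted p up to 0.101).

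The substrates of the granule enzymes were 18 prohormone genes, of which 1 rose, 1 fell and 16 did not pass. Their median was 0.12, and the share of all probe sets called was 4.93%. Pdyn, the precursor of dynorphins, read 10.20, 9.79 and 9.21 in Sox17-GOF islets, against 7.99, 8.28 and 8.15 in control islets. All Sox17-GOF arrays were above all control arrays, 3.01-fold on average (log2 fold change 1.59, adjusted p = 0.00995 from limma), and the call held whichever array was left out (adjusted p up to 0.0494). Ucn3, which encodes the β cell peptide urocortin 3, read 10.89, 10.53 and 10.71 in Sox17-GOF islets, against 11.77, 11.58 and 11.86 in control islets. It was 2.04-fold lower, with no overlap (log2 fold change -1.03, adjusted p = 0.00436), and this call too held whichever array was left out.

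The main islet hormone precursors, chosen after their values were seen, did not pass: the log2 fold change was -0.01 for Ins2, -0.09 for Iapp, -0.10 for Gcg and -0.03 for Sst. Their signals lie near the top of the array scale, with array maxima of 14.1 to 14.2.

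Of 16 measured substrates of Furin and the related convertases, 2 rose and 14 did not pass, against 4.93% of all probe sets called. Their median was 0.06. Met, the receptor of hepatocyte growth factor, read 9.35, 9.19 and 8.86 in Sox17-GOF islets, against 8.61, 8.32 and 8.10 in control islets (log2 fold change 0.79, adjusted p = 0.0367 from limma). Adam10, a surface protease, read 9.12, 9.04 and 8.76 in Sox17-GOF islets, against 8.27, 8.37 and 8.24 in control islets (0.68, adjusted p = 0.0152). The groups overlapped for neither gene. The Met call was lost without Sox17-GOF replicate 1 or 2 or control replicate 2 or 3 (adjusted p up to 0.132), and the Adam10 call without Sox17-GOF replicate 2 or when any of the 3 control arrays was left out (highest adjusted p 0.0659).

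**Figure D4:**
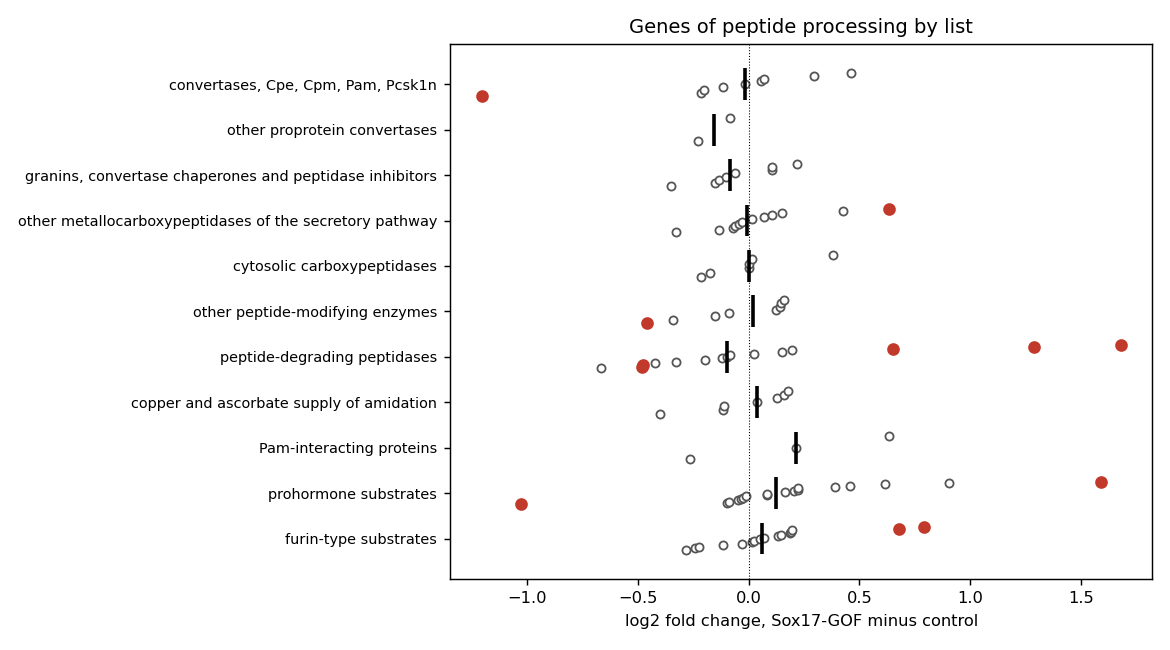
Log2 fold change (Sox17-GOF minus control, horizontal axis) of each measured gene, by list, with genes that passed an adjusted p of 0.05 filled in red and the list median as a bar. Calls lie on both sides of 0 among the peptide-degrading peptidases and the prohormone substrates, and the list medians run from -0.16 to 0.21.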

How the data were processed

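RNA of whole islets (3 Sox17-GOF and 3 control samples, 1 array each) was amplified with a NuGEN kit, labelled with biotin and hybridized to Affymetrix Mouse Gene 1.0 ST arrays. The authors deposited log2 values from RMA, a procedure of background subtraction, quantile normalization of probes and median polish per probe set. The methods name GeneSpring 10.1 and the submitters' processing notes Affymetrix Expression Console, and which made the values was not settled. RMA gives no depth, so that the precision rests on how many arrays there are.

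Of 34760 probe sets, the 22961 with a symbol entered a linear model (limma 3.58.1, R 4.3.3, eBayes with no trend) with Benjamini-Hochberg adjustment over all 22961. A gene was read from its brightest single-symbol probe set (mean over all 6 arrays). A log2 difference of Pcsk1 and Pcsk1n was compared by an exact permutation test. Named genes were all listed enzymes, Sox17, and of each other list up to 4 that passed with the largest change, or up to 2 where none passed. The genes and lists were chosen with earlier results of these data known. Promoters came from RefSeq (GRCm38.p6). The fit was repeated with limma's array weights, with an intensity trend, after centring arrays on their medians, after a further quantile normalization, over all probe sets, without dim ones, with replicate number as a block, with gene means over probe sets, with the methods' t-test, and without each array in turn. Unless said otherwise, the methods' t-test was adjusted over all 22961 probe sets with no fold cut. The methods themselves used unadjusted p under 0.05 and a 1.3-fold change.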

Additional observations from a re-analysis of the deposited data

How the results depend on the processing

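Of the 22961 probe sets with a symbol, 1133 passed (600 higher, 533 lower). With all probe sets tested 558 passed, with the replicate number as a block 720, and with the methods' t-test after adjustment 71. Leaving out 1 array gave 385 (without control replicate 2) to 1020 (without Sox17-GOF replicate 3), with 472, 521 and 651 without control replicate 1, control replicate 3 and Sox17-GOF replicate 2. Same-numbered arrays did not deviate together (r of -0.041 to 0.054, other pairs -0.048 to 0.059), so the numbers were not taken as pairs. In the block fit Cpm was again the 1 gene called of the 9. The count of 1 among the 9 genes became 2 (Pcsk1 and Cpm) with an intensity trend, array weights, gene means over probe sets, and the methods' t-test at a 1.3-fold change and an unadjusted p under 0.05. It was 0 to 2 when 1 array was left out, 0 without control replicate 2 and 2 without Sox17-GOF replicate 3.

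Of the other lists, granins went from 0 to 1 call (Chga) with an intensity trend. The 1 call of the secretory carboxypeptidases became 0 with the methods' t-test. The 1 call of the modifying enzymes became 0 with quantile normalization, all probe sets, the replicate block and the methods' t-test, and was 0 to 1 without 1 array. The 5 calls of the degrading peptidases became 1 (Nln) with the methods' t-test and were 2 to 6 without 1 array. In the replicate block fit they were again 5, but Ide was lost and Anpep gained, and with all probe sets Dpp9 was lost. The 2 prohormone calls became 0 with the methods' t-test. The 2 calls of furin-type substrates became 1 with all probe sets (Adam10) and 0 with the methods' t-test, and were 0 to 2 without 1 array. What made these counts move was not tested. No called gene among the 9 changed sign under these alternatives. Scaling moved the median of all probe sets by little (-0.01 as deposited, -0.01 centred, 0.01 quantile-normalized). The difference of Pcsk1 and Pcsk1n was 0.30 to 0.52 without 1 array, and 0.36 with quantile normalization.

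Signals of the 9 genes were all above the 20th percentile of 4.63.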

Other observations

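Most of the 9 measured genes differed more between Sox17-GOF arrays than between control arrays. The SD was larger in Sox17-GOF islets than in control islets for 7 of the 9 genes (77.8%), for 58.4% of all 19937 genes, and for 72.4% of the 997 genes with the highest signal. The median SD of the 9 genes was 0.135 in Sox17-GOF islets, against 0.0467 in control islets on the log2 scale. Over all genes it was 0.118 in Sox17-GOF islets, against 0.0981 in control islets. For the 997 genes with the highest signal it was 0.101 in Sox17-GOF islets, against 0.0609 in control islets. The control spread was narrowest for Cpe (SD 0.0055), for Pcsk6 (0.0093) and for Pcsk1 (0.017). With 3 arrays a group these SDs are imprecise, and no test of the spread was made.

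Scg5, the granule chaperone 7B2 of the Pcsk2 enzyme, was picked after its values were seen. It read 12.73, 12.80 and 12.39 in Sox17-GOF islets, against 12.51, 12.57 and 12.53 in control islets (log2 fold change 0.10, adjusted p = 0.696 from limma). As for Pcsk1, Pam, Cpe and Cpm, the array of Sox17-GOF replicate 3 was the lowest of the Sox17-GOF arrays. That array was the highest of them for Pcsk5, Pcsk6 and Pcsk7, level with replicate 1 for Furin (7.41), and between the others for Pcsk1n.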
